A study of Mus musculus with 6 samples.

Results

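Dendritic cells grown from mouse bone marrow progenitors with GM-CSF plus TNFa were compared with the progenitors they came from. The comparison set the 2 GM-TNFa-DC arrays against the 2 GM-MPP arrays, 4 of the 6 arrays of the study. All cells came from C57BL/6 mice. GM-MPP are multipotent progenitors of bone marrow expanded in stem cell cytokines together with GM-CSF. GM-TNFa-DC are dendritic cells derived from GM-MPP in GM-CSF and TNFa, and the third group, GM-DC, was derived from GM-MPP in GM-CSF alone. GM-CSF was thus present in all 3 groups, and a difference between GM-TNFa-DC and GM-MPP holds the passage to dendritic cells and the TNFa together. It also holds any change in the stem cell cytokines, which are named for GM-MPP alone. These parts cannot be told apart in this comparison. The labels give the arrays of a group the numbers 1 and 2 and do not tell whether these were separate cultures or mice. The p-values therefore rest on the spread of these arrays alone, and that spread may be technical. They give no dose, no time in culture, and no age or sex of the animals. Each of 18193 genes was represented by 1 probe set, the set with the highest mean signal over the 6 arrays among those assigned to that gene alone.

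GM-CSF is a cytokine that keeps myeloid progenitors alive and drives them towards granulocytes, macrophages and dendritic cells. Dendritic cells take up antigen, cut it in lysosomes and proteasomes, and show the peptides on MHC molecules to T cells. TNFa binds receptors that free the transcription factor NF-kB from its inhibitors, and in dendritic cells it is known as a maturation signal that raises MHC and costimulatory molecules, lowers uptake and directs the cells to lymph nodes through the chemokine receptor Ccr7.

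The values were log2 signals normalised together, with array medians from 4.67 to 4.77 and highest values from 14.0 to 14.4. Actb, the cytoplasmic actin used as a loading control, stood at 13.82 and 13.84 on GM-MPP arrays 1 and 2 and at 13.84 and 13.68 on GM-TNFa-DC arrays 1 and 2. Levels below are given in that order, as log2 signals, and differences are GM-TNFa-DC minus GM-MPP on the log2 scale with the standard error of the limma fit. The GM-TNFa-DC arrays lay further from each other than the GM-MPP arrays did. They differed by at least 2-fold in 1628 genes, against 396 genes for the GM-MPP arrays. A gene is said to have risen or fallen only where limma's adjusted p (Benjamini-Hochberg over all genes) was below 0.05. No detection calls were used, and a level near or below the array medians may be partly background. No fold is therefore given where the mean of the lower group was under 4.77, the median over all probe sets, and the size and order of such differences are uncertain. The arrays hold bulk RNA, so fewer cells of a type and less RNA per cell cannot be told apart.

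In the change from GM-MPP to GM-TNFa-DC, 504 genes rose (2.77% of those tested) and 775 fell (4.26%), together 7.03% of genes. The median rise among these was 1.96 (3.90-fold) and the median fall -1.60 (3.04-fold). At least 4-fold changes were seen in 249 of the genes that rose and 235 of those that fell, and at least 16-fold changes in 55 and 37. The lower group's mean was under 4.77 in 31 of these 55 genes and 16 of these 37. Among the called genes, 80 went from below the array medians on both GM-MPP arrays to above them on both GM-TNFa-DC arrays, and 122 went the opposite way. The counts were lower with any array left out. Without GM-MPP array 1 the fit called 37 higher and 76 lower, without GM-MPP array 2 it called 40 and 51, without GM-TNFa-DC array 1 it called 131 and 134, and without GM-TNFa-DC array 2 it called 287 and 296. Without either GM-DC array it called 303 and 457. Of 192 called genes eligible for naming here, 26, 25, 69 and 98 stayed called in the first 4 of these fits and 136 without either GM-DC array, and none changed direction.

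Both array numbers were compared separately, as GM-TNFa-DC 1 minus GM-MPP 1 and GM-TNFa-DC 2 minus GM-MPP 2, which share no array. Over all genes the sign was the same on both numbers for 12702 (69.8%), and the GM-TNFa-DC and GM-MPP arrays did not overlap for 10487 (57.6%). At least 2-fold differences on both numbers were found for 691 genes in the higher direction (3.8%) and 967 in the lower (5.32%), while 50 genes differed by at least 2-fold in opposite directions. All 1279 called genes had the same sign on both numbers, as a call with 2 arrays a group nearly requires. Of the called genes, 421 of 504 and 633 of 775 passed 2-fold on each number. The size was less even. The 2 differences lay at least 2-fold apart for 199 called genes (15.6%), against 2138 of all genes (11.8%). Across all genes the difference on number 1 and that on number 2 had a Pearson correlation of 0.7, given as a description because genes are not independent replicates.

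**Figure D1:**
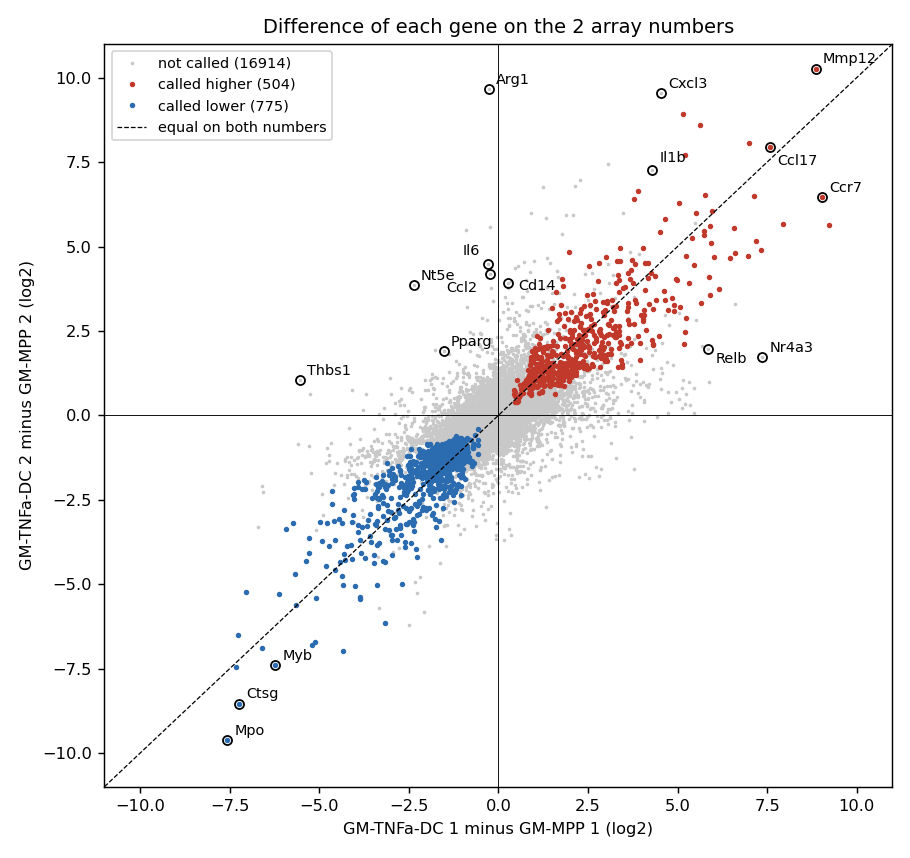
The log2 difference GM-TNFa-DC minus GM-MPP on array number 1 (horizontal axis) and array number 2 (vertical axis), each point a gene, with the 504 called higher and 775 called lower genes in colour. Called genes lie in the quadrants where both numbers share a sign, while Cd14, Ccl2 and Il6 lie near 0 on number 1 and around 4 on number 2, and Arg1 near 0 on number 1 and at 9.66 on number 2.

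The MHC class II genes, which present peptides from endocytosed antigen to CD4 T cells, were among those that rose most. H2-Aa, the class II alpha chain of I-A, stood at 7.19 and 6.76 in GM-MPP and at 13.76 and 12.30 in GM-TNFa-DC. Both GM-TNFa-DC arrays were far above both progenitor arrays, and the rise was 6.06 ± 0.65 (66.7-fold, limma adjusted p = 0.0115). H2-Eb1, the beta chain of I-E, went from 5.79 and 5.78 to 13.12 and 10.68, a rise of 6.12 ± 1.07 (adjusted p = 0.0338). H2-Ab1 rose by 5.71 and Cd74, the invariant chain that guides class II molecules through the cell, by 4.95. Ctss, the cathepsin that trims the invariant chain, rose by 2.27, and Marchf1, a ubiquitin ligase that returns class II molecules from the surface, by 3.40. In all, 6 of the 16 class II presentation genes measured rose and none fell, with a median difference of 2.62 against 0.05 over all genes. The increase was larger on number 1 for 13 of the 16, at least 2-fold larger for 11, with medians of 3.07 on number 1 and 1.45 on number 2. Ciita, the coactivator that class II promoters depend on, was not called: its levels were 3.91 and 3.68 in GM-MPP and 6.85 and 4.53 in GM-TNFa-DC, with differences of 2.94 and 0.85 on the 2 numbers.

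The promoters of these genes are shown because class II promoters are known to carry a CCAAT box next to the X box read by the Ciita-dependent complex. RefSeq promoters of build GRCm38.p6 were searched over the 250 bases before the start site, on both strands, for CCAAT, written ATTGG on the other strand. It was present in 11 of 15 class II presentation promoters (73.3%), which came from 12 of the 16 genes, H2-Ab1 and Cd74 not among them. The share was 34.7% in the promoters of the genes tested and 33.8% in all 32851 promoters of that length. The motif was not particular to class II: the share was 83.3% for the class I list and 80.5% for the mitosis and cytokinesis list. It was 70.4% for the cholesterol and fatty acid synthesis list. The sequences run from 80 to 1 base before the start, for H2-Aa at chr17:34287824-34287903 on the minus strand and for H2-Eb1 at chr17:34305787-34305866 on the plus strand, and capitals mark the motif. A match describes the letters and not a bound site.
H2-Aa: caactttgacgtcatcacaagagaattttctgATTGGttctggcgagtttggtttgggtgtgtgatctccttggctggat
H2-Eb1: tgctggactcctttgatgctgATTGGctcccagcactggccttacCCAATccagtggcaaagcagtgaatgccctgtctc

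Presentation on MHC class I, which shows peptides of the cell's own proteins, had smaller differences. Of 15 class I genes 4 rose and none fell, with a median difference of 1.29. B2m, the light chain shared by all class I molecules, rose from 12.28 and 12.76 to 13.65 and 13.95, a change of 1.29 ± 0.23. H2-M3, a class Ib molecule that presents formylated peptides, went from 7.10 and 7.74 to 9.77 and 10.11, a rise of 2.52 ± 0.32 (5.74-fold, limma adjusted p = 0.0169). Tap1, a chain of the peptide transporter, rose by 1.75 and Cd1d1, which presents lipids, by 3.39. The class I medians were 1.37 on number 1 and 0.99 on number 2. Of the 15 genes 1 was at least 2-fold higher on number 1 and 3 on number 2, among them Cd1d1 with 2.79 and 3.99. None of the 4 immunoproteasome genes was called. Psmb8 and Psmb9, the catalytic subunits exchanged under interferon, had differences of 1.01 (limma adjusted p = 0.0642) and 1.13 (limma adjusted p = 0.0746). Neither overlapped between the groups, which also held for 57.6% of all genes. None of 31 constitutive proteasome genes was called either, with a median of -0.49.

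Costimulatory and coinhibitory ligands, which set what a T cell does with the peptide signal, gave 3 called genes of 14, each higher. Cd274, the ligand PD-L1, stood at 6.46 and 6.50 in GM-MPP and at 10.63 and 11.001 in GM-TNFa-DC, and rose by 4.33 ± 0.42 (20.2-fold, limma adjusted p = 0.00906). Cd86 rose by 2.43 and Cd80 by 2.20, both ligands of Cd28. Cd40, the receptor through which T cells license dendritic cells, was not called. Its levels were 5.22 and 5.34 in GM-MPP and 8.98 and 6.24 in GM-TNFa-DC, with differences of 3.76 and 0.89. The groups did not overlap, which also held for 57.6% of all genes. Cd83, a surface marker of mature dendritic cells, rose from 4.33 and 3.77 to 11.53 and 8.93 (6.18 ± 0.93). The Slam and Siglec receptors added 4 risen genes of 23, of which Slamf7 was largest at 4.15.

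Chemokines and the receptor for lymph node homing held some of the large rises. Ccl17, a ligand of Ccr4 on T cells, went from 5.91 and 4.90 to 13.48 and 12.87, a rise of 7.77 ± 0.42 (218-fold, limma adjusted p = 0.00231). Ccl22, the other Ccr4 ligand, went from 4.45 and 5.25 to 12.40 and 10.92, and Ccl5, a chemoattractant of T cells and monocytes, from 4.70 and 4.95 to 11.70 and 13.02. The increase in Ccl22 was larger on number 1 and that in Ccl5 on number 2. Cxcl16 rose by 4.95 and Ccl6 by 2.63, which made 5 of 34 chemokine genes higher and none lower. The chemokine median was 0.39. Ccr7, the receptor that leads mature dendritic cells to lymph nodes, stood at 2.85 and 3.44 in GM-MPP and at 11.87 and 9.91 in GM-TNFa-DC. Its rise of 7.74 ± 0.70 (limma adjusted p = 0.00783), from progenitor levels below the array medians, was the only call among 20 chemokine receptors. That share of 5% stood against 7.03% called of all genes. Fscn1, the actin-bundling protein fascin of dendritic cell processes, went from 3.56 and 4.19 to 12.80 and 9.84, with differences of 9.24 and 5.64 on the 2 numbers.

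Secreted growth factors rose in 3 of 32 genes of the interleukin and growth factor list (9.38%, against 2.77% of all genes). Fst, the activin antagonist follistatin, went from 3.59 and 3.64 to 9.32 and 8.99, a rise of 5.54 ± 0.80. Pdgfa and Pdgfb, ligands of the PDGF receptors, rose by 1.45 and 1.92. The interleukin 1 genes had large but uneven differences and no call. Il1b, the secreted pyrogenic cytokine, stood at 4.94 and 5.12 in GM-MPP and at 9.24 and 12.40 in GM-TNFa-DC (5.79 ± 1.34, limma adjusted p = 0.0649). Il12b, the shared subunit of interleukins 12 and 23, went from 2.92 and 2.67 to 6.04 and 4.52 and was not called (adjusted p = 0.0727).

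In the TNF pathway 3 receptors and 4 signalling genes rose and none fell. No ligand of the TNF superfamily was called among 14 measured, and Tnf itself stood at 6.16 and 7.26 in GM-MPP and at 6.52 and 7.46 in GM-TNFa-DC, so the groups overlapped. Of the 25 receptors 3 rose: Tnfrsf9, the costimulatory receptor 4-1BB, by 6.14 ± 0.63 (70.3-fold), the death receptor Fas by 2.53, and Tnfrsf1b, the inducible TNF receptor, by 2.08 ± 0.34. Tnfrsf9 went from 4.91 and 5.09 to 10.67 and 11.61, larger on number 2. Tnfrsf1a, the widely expressed TNF receptor, had a difference of -0.54 that was not called. Among 25 adaptors and signalling genes 4 rose and none fell. They were Tnfaip3, the ubiquitin-editing inhibitor A20 (1.64), its partner Tnip1 (1.59), the caspase-8 inhibitor Cflar (1.46) and Tnfaip2 (1.41).

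NF-kB subunits and their inhibitors lay higher in GM-TNFa-DC on both array numbers for all 10 genes measured, against 7122 of all 18193 genes. The differences ran from 0.265 to 3.92, and 1 gene was called (10%, against 2.77% risen of all genes). Nfkbie, the inhibitor IkB-epsilon, went from 6.37 and 6.9998 to 10.42 and 9.78, a rise of 3.42 ± 0.41 (10.7-fold, limma adjusted p = 0.0146). Relb, the subunit of the alternative pathway, stood at 3.90 and 5.59 in GM-MPP and at 9.76 and 7.57 in GM-TNFa-DC (adjusted p = 0.0704). Nfkb2, which yields its partner p52, stood at 6.24 and 6.82 and then at 9.95 and 8.32 (adjusted p = 0.0661). The difference on number 1 exceeded that on number 2 for all 10 genes and by at least 2-fold for 5. Medians were 1.88 on number 1 and 0.82 on number 2. Nfkbia, the early-response inhibitor, and Rela, the main transactivating subunit, had differences of 0.32 and 0.28.

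The NF-kB consensus was found on either strand in 7 of 12 promoters of the NF-kB list (58.3%) and in 5 of 12 promoters of the class I list (41.7%), against 4.5% of the promoters of the genes tested and 3.9% of all promoters. Among promoters of the genes that rose it was found in 43 of 539 (7.98%), and among those of the genes that fell in 23 of 828 (2.78%). The promoters of Nfkbie, B2m and H2-M3 are shown, from 140 to 61 bases before the start and on the plus strand, at chr17:45555560-45555639, chr2:122147547-122147626 and chr17:37270094-37270173. Capitals mark the consensus.
Nfkbie: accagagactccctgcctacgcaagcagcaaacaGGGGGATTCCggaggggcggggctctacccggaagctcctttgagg
B2m: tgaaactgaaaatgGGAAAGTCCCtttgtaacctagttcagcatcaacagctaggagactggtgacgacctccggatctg
H2-M3: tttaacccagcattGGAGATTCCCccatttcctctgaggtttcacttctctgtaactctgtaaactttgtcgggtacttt

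Cytokine receptors moved in both directions, with 6 of 35 risen and 3 fallen. Il7r, the interleukin 7 receptor chain, went from 6.21 and 6.03 to 12.11 and 11.64, a rise of 5.76 ± 0.27 (54.2-fold, limma adjusted p = 0.0019). Csf2rb2 and Csf2rb, beta chains for GM-CSF and interleukin 3 signalling, rose by 3.25 and 1.70; near-identical copies of this kind can share probes. Il10ra rose by 2.46, Il13ra1 by 2.26 and Ifngr2 by 1.43. Il1r2, the decoy receptor for interleukin 1, fell by 4.05 from 12.53 and 12.45 to 8.30 and 8.58. Flt3, the receptor tyrosine kinase of early progenitors and of dendritic cells grown in Flt3 ligand, fell by 1.75, and Il17ra by 1.81. Among the STAT and SOCS genes 3 of 20 rose, the feedback inhibitors Socs1 (2.04) and Socs3 (1.98) and the interferon-response factor Stat2 (1.63).

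Called genes of the uptake receptor lists were mostly higher in GM-TNFa-DC. Of 24 C-type lectin receptor genes 6 rose and 1 fell (25% and 4.17%, against 2.77% and 4.26% of all genes). The fallen gene was Clec2i, from 4.87 and 4.57 to 3.91 and 3.85 (-0.84), near or below the array medians throughout. Clec7a, the beta-glucan receptor dectin-1, went from 6.82 and 6.56 to 12.32 and 12.56, a rise of 5.75 ± 0.22 (53.9-fold, limma adjusted p = 0.0019). Clec4n, the receptor dectin-2, rose by 3.85, Ly75 (DEC-205) by 3.73 and Mgl2, a galactose-binding lectin, by 4.50. Cd209a, the mouse relative of DC-SIGN, was high on 1 array only, with 3.91 and 4.11 in GM-MPP and 8.64 and 4.18 in GM-TNFa-DC. Of 22 genes in the scavenger and apoptotic cell receptor list 7 rose and 2 fell. Those that fell were Cd163 (-2.39) and Cd5l (-2.64), both known from tissue macrophages. Both stood below the array medians on each GM-TNFa-DC array. Cd36, the oxidised lipid receptor, went from 2.76 and 2.80 to 7.98 and 10.50, and Axl, a receptor for apoptotic cells, from 4.54 and 4.09 to 9.94 and 9.33. Axl rose by 5.32 ± 0.42 with nearly the same size on both numbers, 5.41 and 5.24. Among Toll-like receptors and adaptors 2 of 22 rose (9.09%, against 2.77% of all genes), Irak2 by 2.02 and the Tlr4 cofactor Ly96 by 1.54. The adaptor Tirap fell by 1.23, as 1 of 22 (4.55%, near the 4.26% of all genes).

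Lysosomal and lipid genes, which serve the breakdown and handling of what the cell takes up, had called members in the higher direction alone. Of 36 lysosomal enzyme and proton pump genes 10 rose and none fell, with medians of 0.84 on number 1 and 1.11 on number 2. Ctsk, a cathepsin with collagenase activity, went from 3.83 and 4.38 to 9.84 and 9.06, a rise of 5.35 ± 0.43 (limma adjusted p = 0.0055). Atp6v0d2, a proton pump subunit of osteoclasts and macrophages, went from 7.03 and 5.68 to 11.69 and 11.50 (5.24 ± 0.47). Ctsh rose by 2.43 and the acid lipase Lipa by 1.52. Among 22 nuclear receptor and lipid handling genes 7 rose and none fell. Abca1, the cholesterol exporter, went from 4.57 and 7.28 to 11.03 and 11.94, and Lpl, the lipoprotein lipase, from 7.88 and 7.39 to 12.40 and 12.82. The progenitor arrays differed from each other for Abca1 by more than for most genes, and its rise of 5.56 carried a standard error of 0.91. Mgll rose by 3.69, Ch25h by 3.67 and Fabp5 by 2.10. Mmp12, the macrophage metalloelastase, went from 4.23 and 3.50, both below the array medians, to 13.09 and 13.77 (9.56 ± 0.35, limma adjusted p = 0.0019).

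The interferon-inducible GTPases, cell-autonomous defence proteins, rose in 5 of 10 genes and fell in none. Gbp2 went from 5.22 and 5.96 to 11.10 and 10.06, a rise of 4.99 ± 0.43 (31.8-fold, limma adjusted p = 0.00688). Gbp8 rose by 4.04, Gbp3 by 2.48 and Gbp7 by 1.47. These guanylate-binding protein genes are near copies of each other, and the Gbp2 probe set carries the suffix x_at, which marks probes that may bind other sequences. Of the 30 genes in the interferon-stimulated list 4 rose: Usp18 (4.49), Mx1 (3.47), Zbp1 (2.51) and Parp14 (2.00). Differences in that list were larger on number 2 for 24 of 30 genes, by at least 2-fold for 17, and by 2-fold on number 1 for none. Irf7, which amplifies the interferon response, showed this with 4.56 and 5.20 in GM-MPP and 5.34 and 9.22 in GM-TNFa-DC, and was not called.

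A repeat of GAAA with any 2 bases between the copies, the core of the element read by interferon regulatory factors, was searched in the same 250 bases on both strands. It was present in 6 of 8 promoters of the GTPases (75%) and in 8 of 27 of the interferon-stimulated genes (29.6%), against 2.61% of the promoters of the genes tested and 2.98% of all promoters. The promoters of Gbp2, Gbp3 and Gbp7 lie close together on the plus strand of chromosome 3, at chr3:142620583-142620662, chr3:142559964-142560043 and chr3:142530256-142530335. In capitals the motif is read on the opposite strand, and in Gbp3 it marks overlapping matches.
Gbp2: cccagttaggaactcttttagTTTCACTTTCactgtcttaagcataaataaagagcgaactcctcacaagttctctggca
Gbp3: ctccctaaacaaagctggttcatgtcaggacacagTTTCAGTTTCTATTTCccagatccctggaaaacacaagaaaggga
Gbp7: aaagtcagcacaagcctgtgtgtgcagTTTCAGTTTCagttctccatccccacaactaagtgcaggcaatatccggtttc

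Interferon regulatory factors themselves rose in 3 of 10 genes. Irf4, needed for the dendritic cells that migrate and present on class II, went from 3.99 and 5.01 to 9.91 and 8.57, a rise of 4.74 ± 0.62 (limma adjusted p = 0.0185). Irf8, which directs progenitors away from granulocytes, went from 5.80 and 7.32 to 10.99 and 9.43 (3.64 ± 0.69), and Irf5 rose by 2.80. Irf2bp2, a corepressor placed in the same list, fell by 1.47. All 3 that rose were larger on number 1. Of the other dendritic cell subset factors Ahr rose by 1.64 and Id1 fell by 3.22. Batf3 and Zbtb46, factors of cross-presenting and of conventional dendritic cells, were not called, with differences of 2.87 and 1.85. In the AP-1 list 3 of 15 genes rose, namely Atf3 (3.63), Junb (1.97) and Maff (1.62), and Egr2, a zinc finger factor induced by growth signals, rose by 5.52 ± 0.56 from 4.26 and 4.10 to 10.20 and 9.19.

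**Figure D2:**
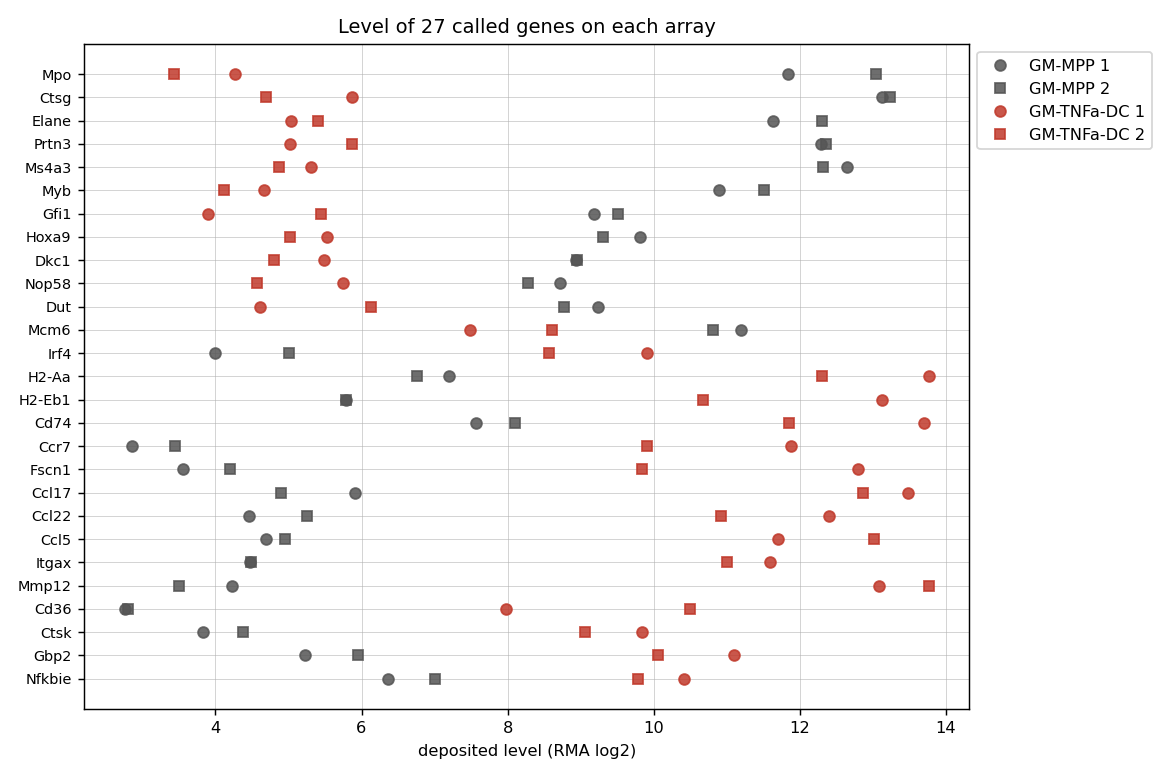
Log2 signal of hand-picked called genes on each GM-MPP and GM-TNFa-DC array, a point per array. The 2 arrays of GM-TNFa-DC lie on the same side of both GM-MPP arrays, as they did for all 1279 called genes. Mmp12 is among those that rose and Mpo among those that fell.

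Several of the genes with the most negative differences encode proteins of neutrophil granules, of which the primary granules are made in promyelocytes. Mpo, myeloperoxidase, went from 11.84 and 13.05 to 4.27 and 3.43, a difference of -8.60 ± 0.55 (limma adjusted p = 0.00325), and both GM-TNFa-DC arrays lay below the array medians. Ctsg, cathepsin G, went from 13.12 and 13.24 to 5.87 and 4.69, and Elane, neutrophil elastase, from 11.63 and 12.30 to 5.03 and 5.41. Both stood below 6 on each GM-TNFa-DC array. Ms4a3, a membrane protein of granulocyte and monocyte progenitors, fell by 7.39 and Prtn3 by 6.88. Ngp fell by 5.91, Ltf (lactoferrin, of the secondary granules) by 5.67 and Cd177 by 5.65. In all 12 of 21 granule and neutrophil genes fell, with a median difference of -3.77. Ctsc, the protease that activates granule serine proteases and also a lysosomal enzyme, rose by 1.24 against the rest of the list. Lcn2, an iron-sequestering protein of secondary granules, was not called and differed between the numbers, with 13.49 and 13.56 in GM-MPP and 7.88 and 12.71 in GM-TNFa-DC.

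Transcription factors of progenitors fell in 8 of 26 genes and rose in none. Myb, which holds progenitors in cycle, went from 10.89 and 11.51 to 4.67 and 4.11, a difference of -6.81 ± 0.52 (limma adjusted p = 0.00507). Gfi1, a repressor needed for neutrophils, fell by 4.68, Nfe2 by 3.51 and Lyl1 by 2.89. Myc, the growth regulator, went from 9.54 and 9.37 to 6.61 and 6.32, with differences of -2.93 and -3.05 on the 2 numbers. Hoxa9 went from 9.82 and 9.30 to 5.52 and 5.03 (-4.29 ± 0.28), also of one size on both numbers, and its cofactor Meis1 fell by 2.03. Hoxa7 fell by 1.16, while Meis2, called with a difference of 0.54, stayed below the array medians on all 4 arrays. The median difference over the 20 Hox and Meis genes was 0.03, and -0.04 with the arrays centred on their medians. Among PU.1, C/EBP and Klf factors 3 of 19 fell, Klf5 by 3.56, Klf13 by 1.34 and Klf11 by 1.14, and Spi1, the gene of PU.1, overlapped between the groups at 9.92 and 10.03 against 9.99 and 9.50.

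Most proliferation genes were lower in GM-TNFa-DC on both numbers, 43 of 44 in the replication list and 43 of 46 in the mitosis list. The size of the difference depended on the number. In the DNA replication list 11 of 44 genes fell and none rose, with a median of -1.99. Mcm6, a subunit of the replicative helicase, went from 11.20 and 10.81 to 7.48 and 8.61, a difference of -2.96 ± 0.61 (7.76-fold, limma adjusted p = 0.0484). Dut, which removes dUTP, fell by 3.64, Gins1 fell by 2.88, the primase Prim1 by 2.75 and Mcm7 by 2.73. In the mitosis and cytokinesis list 3 of 46 genes fell (6.52%, against 4.26% of all genes). The list had a median of -2.22, and 37 of its genes were at least 2-fold lower on both numbers, against 5.32% of all genes. Those called were Kif23, a kinesin of the midbody (-2.60), Espl1, the separase that parts sister chromatids (8.26 and 7.94 against 5.45 and 6.46), and Bub3, of the spindle checkpoint (-1.01). The difference on number 1 lay below that on number 2 for 43 of 44 replication genes and for 46 of 46 mitosis genes. Both groups can enter this gap. Mcm6 and Espl1 stood lower on GM-TNFa-DC 1 than on GM-TNFa-DC 2, and also higher on GM-MPP 1 than on GM-MPP 2. Mki67, the proliferation antigen, stood at 11.90 and 11.34 in GM-MPP and at 8.72 and 10.12 in GM-TNFa-DC and was not called (adjusted p = 0.094). Of the cell cycle inhibitors and D cyclins 4 of 23 rose, with Cdkn1a, the p21 inhibitor, at 2.79 and Cdkn2b, p15, at 2.81, and Ccnd3 fell by 1.26.

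The promoters of Mcm6 and Espl1 are shown because they carry motifs known from S-phase and from mitotic genes. The E2F motif TTTGGCGC or TTTCCCGC was present in 6 of 42 replication promoters (14.3%), in 36 of 828 promoters of genes that fell (4.35%), in 1.93% of the promoters of the genes tested and in 1.3% of all promoters. CCAAT and TTTGAA, the latter the core of the cell cycle homology region, occurred together in 17 of 41 mitosis promoters (41.5%), in 4.25% of the promoters of the genes tested and in 5.55% of all promoters. The Mcm6 sequence covers 120 to 1 bases before the start on the minus strand, at chr1:128359706-128359825, and the Espl1 sequence 80 to 1 on the plus strand, at chr15:102296213-102296292. Capitals mark E2F motifs and CCAAT in Mcm6, and CCAAT and TTTGAA in Espl1.
Mcm6: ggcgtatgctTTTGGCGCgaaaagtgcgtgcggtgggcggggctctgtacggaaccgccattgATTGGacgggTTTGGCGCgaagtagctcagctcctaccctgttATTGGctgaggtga
Espl1: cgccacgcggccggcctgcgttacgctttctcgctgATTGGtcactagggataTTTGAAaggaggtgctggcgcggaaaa

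Called genes for building ribosomes and nucleotides were all lower in GM-TNFa-DC. Of 45 ribosome biogenesis genes 20 fell and none rose, with medians of -1.25 on number 1 and -1.36 on number 2, and 2 genes lay at least 2-fold apart between the numbers. Dkc1, the pseudouridine synthase of snoRNA particles, went from 8.94 and 8.95 to 5.48 and 4.80, a difference of -3.80 ± 0.37 (14.0-fold, limma adjusted p = 0.00922). Nop58, a core snoRNA-binding protein, fell by 3.34, Nolc1 by 2.66 and Gar1 by 2.46. Polr1a and Polr1b, the large subunits of RNA polymerase I, fell by 1.88 and 1.32. In nucleotide synthesis 12 of 25 genes fell and none rose, with medians of -1.43 and -1.27. The numbers lay at least 2-fold apart for more of these genes, 3 with the higher value on number 1 and 2 on number 2. Shmt2, the mitochondrial enzyme that feeds the folate cycle, fell by 3.11, with -2.45 and -3.77 on the numbers, and Ctps, which makes CTP, went from 8.80 and 8.77 to 5.72 and 5.95 (-2.95 ± 0.19). The translation factors and tRNA synthetases had 5 fallen genes of 33 (15.15%) and the mitochondrial ribosomal proteins 4 of 46 (8.7%), against 4.26% of all genes. Mrps28 had the largest fall of the latter, at -1.62. None of 28 cytosolic ribosomal protein genes was called, and their median was -0.32.

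Metabolic genes were mixed. In glycolysis and the pentose phosphate path 3 of 26 genes rose and 3 fell. The glucose transporters moved in opposite directions: Slc2a1 went from 9.46 and 9.05 to 11.31 and 12.08 (2.44 ± 0.37), and Slc2a3 from 9.04 and 10.24 to 6.34 and 5.26 (-3.84 ± 0.60). Aldoc and Hk2 rose by 2.82 and 1.32, while Rpia and Taldo1, of the pentose phosphate path, fell by 2.01 and 1.23. Among amino acid transporters Slc7a2, an arginine carrier, rose by 5.66 and Slc1a5, the glutamine carrier, fell by 1.92. In the cholesterol and fatty acid synthesis list all 27 genes had negative mean differences (median -1.12). Fdps alone was called (3.7% of the list, below the 4.26% fallen of all genes). It went from 12.70 and 12.07 to 8.77 and 8.82 (-3.58 ± 0.34). Of 52 respiratory chain genes 2 fell (3.85%, below the 4.26% of all genes), Ndufa4 by 1.95 and Atp5a1 by 0.88.

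Adhesion and cytoskeletal lists had medians near that of all genes, 0.14 and 0.06, with large changes in single members. Of 32 integrins and adhesion molecules 9 rose and 2 fell (28.1% and 6.25%). Of 40 actin and cytoskeleton genes 4 rose and 1 fell (10% and 2.5%). The shares over all genes were 2.77% and 4.26%. Itgax, the CD11c chain by which dendritic cells are sorted, went from 4.47 and 4.49 to 11.59 and 10.998, a rise of 6.82 ± 0.34 (limma adjusted p = 0.00203). Cdh1, E-cadherin, rose by 4.30, Itga1 by 4.25 and Icam1, the ligand of LFA-1, by 4.14. Itga2b and Itga6, integrin chains of megakaryocytes and of stem cells, fell by 2.20 and 2.10. Coro1a, a coronin of leukocyte actin, fell by 1.71, and Myo1e and Marcksl1 rose by 3.02 and 1.90. Of 38 Rab GTPases 2 fell (5.26%, near the 4.26% of all genes), Rab27a, which docks secretory granules, by 2.37 and Rab38 by 1.32. Among prostaglandin and leukotriene genes Ptger4, a prostaglandin E2 receptor, rose by 3.42, and Cysltr1, a leukotriene receptor, rose from 3.97 and 5.15 to 7.33 and 7.80.

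**Figure D3:**
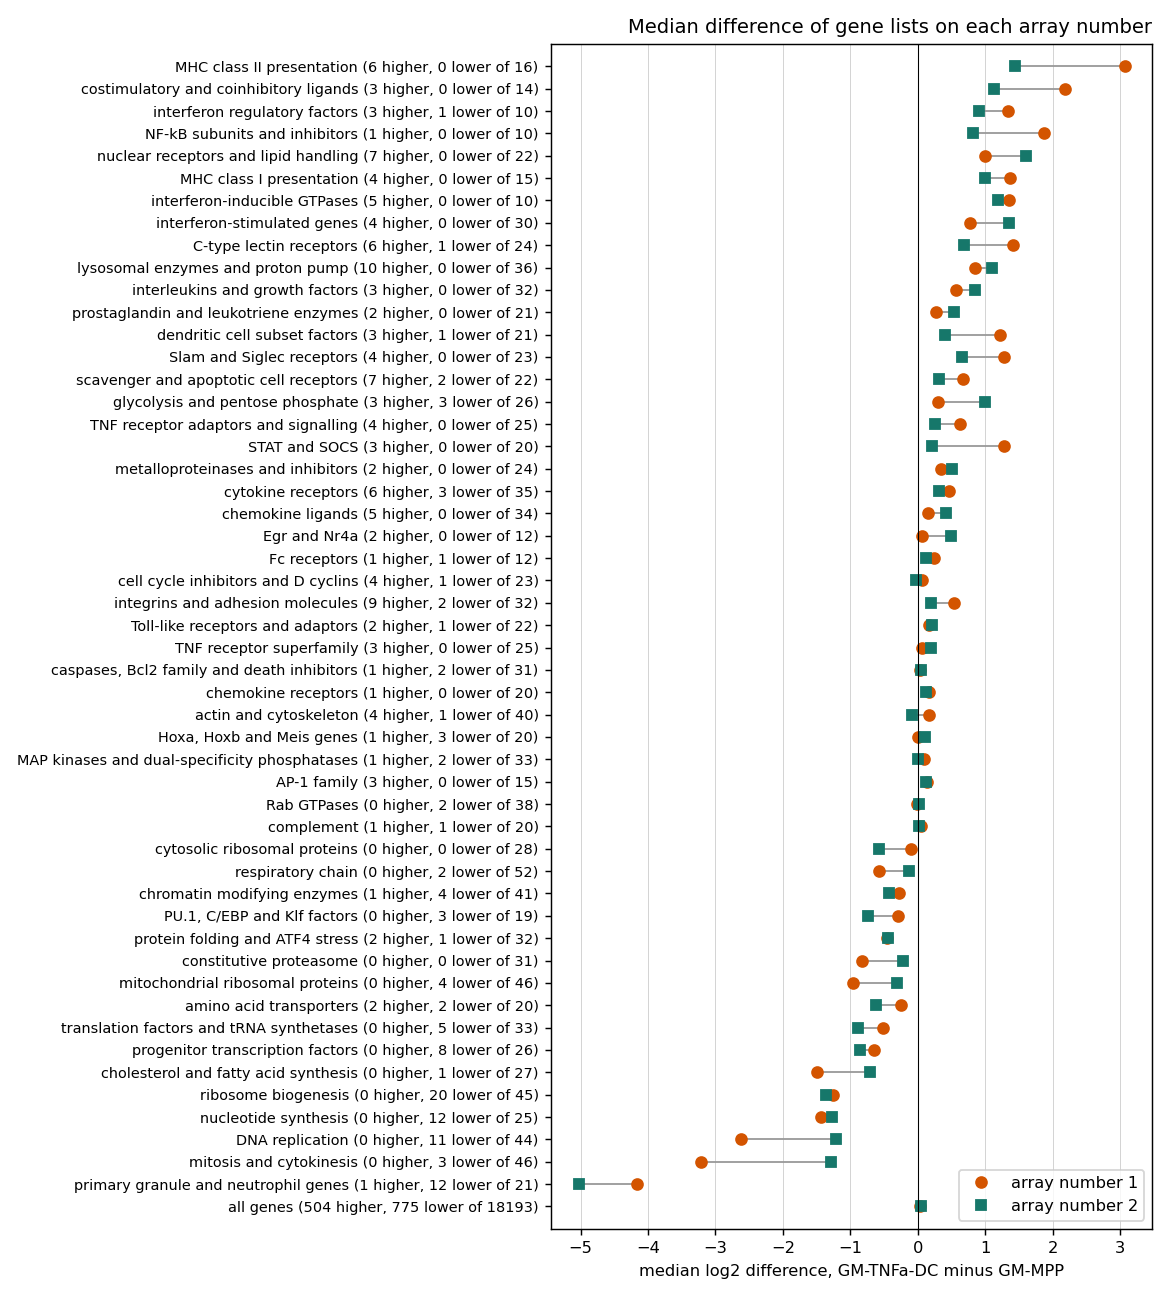
The median log2 difference GM-TNFa-DC minus GM-MPP of gene lists on array number 1 and on array number 2. The row for all genes lies at 0.04 and 0.05. Drawn are the lists with a called gene, cell type markers left out. The cytosolic ribosomal protein and constitutive proteasome lists, which had no call, are drawn as well. TNF superfamily ligands and the immunoproteasome, also without a call, are not drawn. Granule, replication and mitosis genes lie on the left and MHC class II and costimulatory genes on the right, and the gap between numbers is wide for mitosis (-3.21 and -1.29) and narrow for ribosome biogenesis (-1.25 and -1.36).

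Markers of cell types were read in the same way. Of 18 dendritic cell markers 10 rose and 1, Flt3, fell, and the log2 of their mean linear signal went from 6.26 and 6.48 in GM-MPP to 11.33 and 10.02 in GM-TNFa-DC. Of 22 monocyte and macrophage markers 4 rose and 1 fell (18.2% and 4.55%, against 2.77% and 4.26% of all genes). That level over the list was already high in GM-MPP, 9.80 and 10.66, and stood at 11.03 and 11.48 in GM-TNFa-DC. Csf1r, the receptor of macrophage growth factor, stood at 8.98 and 11.38 and then at 12.42 and 12.95, and was not called. Adgre1, the F4/80 antigen, stood at 9.95 and 9.32 and then at 9.83 and 11.30, so the groups overlapped. Mmp12, Ctsk, Axl and Marco are also known from macrophages, and the part of such cells in the changes of uptake, lysosomal and lipid genes was not tested.

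Other lineages differed in both directions. Among the 16 markers of mast cells, basophils and eosinophils 4 fell, the protease Mcpt8 by 3.27, the IgE receptor chain Ms4a2 by 3.06, Cpa3 by 3.03 and Gata2 by 1.28. The same level over that list was 9.48 and 9.34 in GM-MPP and 8.69 and 9.33 in GM-TNFa-DC. Of 14 erythroid and megakaryocyte markers 4 fell, and their level over the list was 7.64 and 7.85 against 8.02 and 9.17. Of 18 stem and progenitor markers 7 fell, Cd34 from 6.98 and 7.38 to 2.86 and 3.54, and Procr rose from 3.67 and 3.29 to 9.30 and 11.88 (7.11 ± 1.23). Procr, the protein C receptor, is also expressed by other cell types than stem cells. No plasmacytoid dendritic cell marker of 12 was called, and Siglech, the defining receptor, stood at 5.33 and 5.44 against 5.55 and 5.36. None of 16 stromal markers was called, with Col1a1 at 4.24 and 4.47 against 4.41 and 4.24. The lymphoid list went in that level from 5.50 and 5.73 to 8.30 and 7.87 through Il7r, while the B cell gene Cd79a stood below the array medians on all arrays and Nkg7, a granule protein of killer cells, fell by 4.17. The part of any of these cell types in the results was not tested.

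The genes that differed most between the numbers were described after their values were seen. Higher on number 1 were Nr4a3, an orphan nuclear receptor, at 4.44 and 4.71 in GM-MPP and 11.80 and 6.44 in GM-TNFa-DC, and Relb, Nfkb2, Cd40 and Cd209a as given above. Cd83, Ccr7 and Fscn1 were called despite gaps of the same direction, with 9.02 and 6.46 for Ccr7. H2-DMb2, a chain of the molecule that loads class II with peptide, stood at 6.21 and 6.64 against 12.08 and 7.62. A wide gap in favour of number 2 was that of Arg1, the arginase of alternatively activated macrophages, at 3.19 and 2.94 in GM-MPP against 2.93 and 12.60 in GM-TNFa-DC. It was thus below the array median on 3 of these arrays and far above it on GM-TNFa-DC 2. Also higher on number 2 were Cd14, the lipopolysaccharide coreceptor of monocytes, at 8.24 and 9.25 against 8.50 and 13.18, and the inflammatory cytokine Il6 at 5.15 and 4.16 against 4.86 and 8.63. For both, GM-TNFa-DC 1 lay within or next to the progenitor values and GM-TNFa-DC 2 stood alone. The monocyte chemoattractant Ccl2 stood at 5.74 and 6.14 against 5.50 and 10.32, and the neutrophil chemoattractant Cxcl3 at 2.69 and 2.48 against 7.23 and 12.02. Ptgs2, the inducible cyclooxygenase, stood at 3.79 and 3.93 against 4.80 and 8.50. Fn1 and Thbs1, matrix glycoproteins, turned over between the numbers, with differences of -5.25 and 0.62 for Fn1 and -5.55 and 1.05 for Thbs1, and so did the stem cell factor receptor Kit, with 1.57 and -1.79. None of these except Cd83, Ccr7 and Fscn1 was called.

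**Figure D4:**
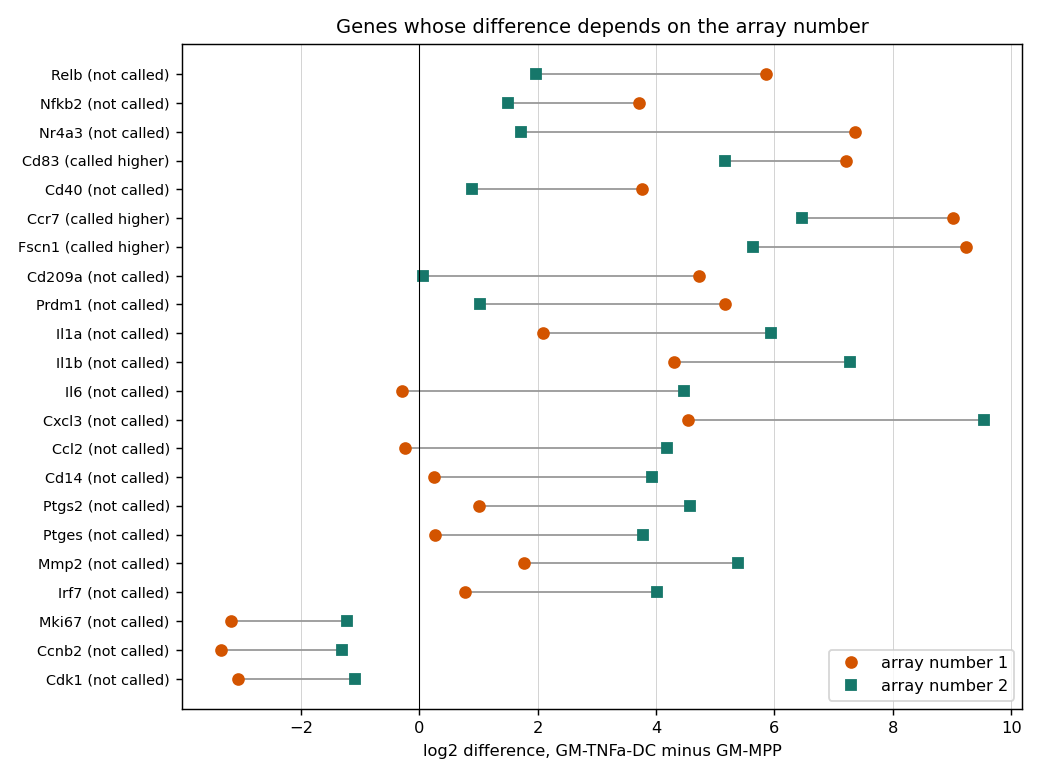
The log2 difference GM-TNFa-DC minus GM-MPP on array number 1 (circles) and array number 2 (squares) for 22 genes chosen after their values were seen, with the call in brackets. Genes from Relb to Prdm1 lie higher on number 1 and those from Il1a to Irf7 higher on number 2, while Mki67, Ccnb2 and Cdk1 were lower in GM-TNFa-DC on both numbers and more so on number 1.

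The GM-DC arrays, grown without added TNFa, showed the same order between numbers in these genes. Arg1 stood at 3.11 and 12.78 in GM-DC 1 and 2, Cd14 at 7.48 and 12.50, Il6 at 4.64 and 7.17, Nr4a3 at 10.05 and 6.63, Cd209a at 11.37 and 4.33 and Mki67 at 9.07 and 10.30. The number thus moved with the levels in both dendritic cell groups, and what the number stands for was not tested. GM-DC minus GM-MPP uses the same GM-MPP arrays, and it gave 340 genes higher and 479 lower. Of the 504 genes higher and 775 lower in GM-TNFa-DC, 312 and 459 were also called in GM-DC in the same direction. The shared GM-MPP arrays favour such an overlap. For genes picked as examples, the differences of GM-DC beside those of GM-TNFa-DC were 9.66 and 9.56 for Mmp12, 5.89 and 6.06 for H2-Aa and 6.76 and 7.74 for Ccr7. They were 2.24 and 5.54 for Fst, 0.41 and 1.64 for Tnfaip3 and -7.94 and -8.60 for Mpo. A direct test of GM-TNFa-DC minus GM-DC with limma called 0 genes (lowest adjusted p = 1), with 410 genes at an unadjusted p under 0.05. That fit leaves the spread between the numbers in its error. With the array number as a block, chosen after seeing the data, limma also called 0 genes (lowest adjusted p = 1), with 592 at an unadjusted p under 0.05. Both counts at an unadjusted p under 0.05 lie below the number that 18193 genes without any difference would give on average. A difference between GM-TNFa-DC and GM-DC was thus not detectable gene by gene in either fit with 2 arrays a group.

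Most called genes, 1031 of 1279, belonged to none of the 61 lists. Symbol stems of 20 genes or more were also counted, genes of the lists included. The largest shares called were in Arhgap, with 3 risen and 4 fallen of 33, and Abhd, with 2 and 2 of 21. Of 25 RNA polymerase genes with the stem Polr, Polr1a and Polr1b among them, 4 fell (16%) and none rose. Of 35 Ddx helicase genes 5 fell (14.3%) and none rose, against 4.26% fallen of all genes. Of 20 semaphorins 3 rose (15%) and none fell, against 2.77% risen of all genes. Sema7a rose by 2.29, Sema4a by 1.29 and Sema4c by 0.67. Of 347 solute carriers 11 rose and 14 fell (7.20%), a share near the 7.03% of all genes, and of 336 zinc finger genes with the stem Zfp 7 rose and 7 fell (4.17%). Some of the large changes outside the lists, chosen after their values were seen, had close values on both numbers. Dcstamp, needed for the fusion of osteoclasts and macrophages, went from 3.41 and 3.70 to 9.38 and 9.76 (6.01 ± 0.28, limma adjusted p = 0.0019), and Ces2g, a carboxylesterase, from 8.17 and 8.67 to 3.07 and 3.26 (-5.25 ± 0.21). Among the 10 largest measured differences in each direction, Car4, a carbonic anhydrase, rose by 7.04, and the endothelial lipase Lipg, the peptidoglycan receptor Pglyrp1 and the resistin-like Retnla fell by 6.14, 6.01 and 5.70. Where a called gene had further probe sets, all of them went the same way in 628 of 747 genes. Named genes for which this did not hold include Klf5, Klf13 and Meis1, each with 1 of 2 further probe sets in the same direction. Cflar had 3 of 4.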

How the data were processed

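Gene expression was measured on Affymetrix arrays from total RNA. Per the submitters' processing notes the deposited log2 values were made by RMA, and per the labels' protocols in Bioconductor, with versions not given in the sources used here. Of 45101 probe sets, 64 controls were left out. A single gene symbol was assigned to 34945, several to 932 and none to 9160, and 34741 matched RefSeq. The probe set with the highest mean over the 6 arrays stood for each of 18193 genes.

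The deposited values were used without further normalisation. The test was limma 3.58.1 in R 4.3.3, with all 6 arrays in 3 groups, an intensity trend and Benjamini-Hochberg adjustment, at an adjusted p under 0.05. With 3 residual degrees of freedom and 2 arrays a group, the number of arrays limits the precision. On simulated data with 50 genes changed at each size in this comparison of 18193 genes, 26% of 2-fold, 68% of 4-fold, 84% of 16-fold and 96% of 64-fold changes were called, with 6 unchanged genes called. The simulated noise was independent between arrays, without the order between numbers that the dendritic cell groups shared. Far fewer genes were changed than were called in the data, so these rates need not hold for the data.

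The members and the 61 gene lists (1405 genes measured) were chosen with earlier results of these data known. The genes named by rule were the 10 largest called changes in each direction without overlap, up to 4 called members a list in each direction, members against their list, a fixed panel, and up to 2 members without overlap of a list with no call. Other genes are named as examples, chosen after their values were seen. Motifs were counted in RefSeq promoters of GRCm38.p6. Alternatives were another quantile normalisation, median centring, a filter on dim genes, other probe set rules, other limma settings, a replicate block and each array left out. Figures were drawn with matplotlib 3.10.9.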

Additional observations from a re-analysis of the deposited data

Results flagged for a closer look

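Rela, the main transactivating subunit of NF-kB, lay on opposite sides of the same GM-MPP arrays in the dendritic cell groups, with differences that limma did not call. Its log2 level was 8.90 and 8.94 in GM-MPP, 8.78 and 8.72 in GM-DC, below both progenitor arrays, and 9.36 and 9.05 in GM-TNFa-DC, above both. The difference from GM-MPP was 0.28 in GM-TNFa-DC (limma adjusted p = 0.438) and -0.18 in GM-DC (limma adjusted p = 0.68). GM-TNFa-DC exceeded GM-DC by 0.46, which limma did not call either (adjusted p = 1). Such a pattern was found in 155 of 18193 genes (0.852%).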

How the results depend on the processing

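With 2 arrays a group, 18193 genes tested and 3 residual degrees of freedom, moderate changes can be missed. Counts of higher and lower genes (504 and 775) were 303 and 446 with only the 4 arrays compared. With arrays left out in turn they ran from 37 to 303 and from 51 to 457, where the lone array of a group is assumed to vary like the others. With every probe set by itself 1251 were lower, and 1269 and 1842 were at least 2-fold higher and lower on both numbers. With the array number as a replicate block the fit called 850 higher and 1210 lower, among them 501 of the 504 and 772 of the 775. The remaining alternatives kept these counts within 1.5 times. The deviations of the numbers correlated by 0.07 between GM-MPP and GM-TNFa-DC, 0.10 between GM-MPP and GM-DC and 0.81 between GM-DC and GM-TNFa-DC, so same-numbered arrays went together in the dendritic cell groups and hardly with GM-MPP. Same-numbered GM-DC and GM-TNFa-DC arrays correlated by 0.988 and 0.990 over probe sets, against 0.970 and 0.961 within these groups. The labels do not say what the number marks, and 0.07 for the groups compared here is no sign of a pairing between them.

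None of the 192 called genes eligible for naming changed direction. A second quantile normalization kept 178 called, centring 190, averaging a gene's probe sets 162, no trend 189, a robust prior 188 and only the 4 arrays 134. Of 41 named genes not called, 9 were called with the replicate block (Batf3, Id2, Il12b, Ncl, Nfkb2, Psmb8, Psmb9, Rpl14 and Tnfsf4), 4 without GM-TNFa-DC replicate 2 (Cd40, Nfkb2, Rel and Tnfsf4) and 2 with probe sets averaged. Of the 61 list medians 14 changed sign under at least 1 alternative, none of them among the 31 of at least 0.5 in size. With an array of either group left out, 18 to 22 medians moved by more than the spread between the numbers, as did 17 without dim genes. Genes not called that changed sign were Actb, at 0.22 with the mean of its probe sets, Ccnd1, at 0.0253 after second quantile normalization, and Siglech, at -0.0072 after centring. With an array left out, Actb ranged from -0.15 to 0.0086, Ccnd1 from -0.65 to 0.45, Kit from -1.73 to 1.504, Siglech from -0.0291 to 0.16, Spi1 from -0.47 to 0.0115 and Tnf from -0.27 to 0.83; the cause was not tested.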
